A study of Arabidopsis with 2 samples.

Results

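The 54 genes described here are the DnaJ co-chaperones and chaperonins of Arabidopsis thaliana on a 2-colour oligonucleotide array. They are the gene probes whose printed description holds the word DnaJ (37 genes) or chaperonin (17 genes), of 21500 gene probes in all. No description held both words, and all 54 locus identifiers were found in RefSeq (assembly TAIR10.1), from which gene symbols were taken. The RNA came from torpedo-stage embryos of the cuc1-1 cuc2-1 double mutant, taken from parent plants of genotype cuc1-1 cuc2-1/+, and from wild-type embryos of the accession Ler. Parent plants of both genotypes grew on soil at 23°C in continuous light without treatment. About 100 embryos per genotype were pooled into 1 extract, and the same pair of extracts was hybridized to 2 arrays. The cuc1 cuc2 RNA was labelled with Cy5 in experiment 1 and with Cy3 in experiment 2, and the Ler RNA with the other dye. Each genotype is thus 1 biological sample, and the spread between the experiments is technical error. The array reads whole embryos, so fewer cells that express a gene and less RNA per cell cannot be told apart.

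Chaperones help other proteins to reach and keep their folded shape. Chaperonins are barrel-shaped complexes that enclose a client protein in their cavity. Plants hold a chaperonin of the GroEL type in plastids (chaperonin 60, with the small lids CPN10 and CPN20), another in mitochondria (HSP60, with CPN10), and a chaperonin without a separate lid in the cytosol (CCT, also called TCP-1). DnaJ or J proteins carry a J domain, with which they bind HSP70 chaperones and stimulate their ATPase, and most of them choose where and on which client an HSP70 acts. CUC1 and CUC2 are NAC transcription factors that are needed for the shoot meristem and for the separation of the cotyledons. The comparison asks which chaperone transcripts differ in level between embryos mutant for both factors and wild-type embryos.

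Values are log2 ratios of cuc1 cuc2 over Ler within an array, turned by the dye labels, and are negative where cuc1 cuc2 gave the lower signal. Each is relative to the bulk of the probes, whose median log2 ratio was 0 in each experiment. Errors in brackets are those of the scanner software's error model for that ratio. The error of a mean was combined from the errors of both experiments as if these were independent, although they share the extracts. A gene was called where its deposited p-value was under 0.01 in both experiments with the same sign, which is the rule of the study. That p-value sets the 2 extracts against each other on 1 array and contains no spread between embryos of a genotype. Across all gene probes the ratios of both experiments correlated at r = -0.44, and across the 18102 probes well above background in every channel at r = -0.02, and 11620 probes had no shared sign in the experiments. Of the control genes, STM, a meristem gene downstream of CUC1 and CUC2, was called lower, CUC2 had log2 ratios of -0.62 and -0.999 and was not called, and CUC1 had 0.02 and -0.11. All 7 embryo marker genes exceeded background clearly in each channel. Their summed signal was 41790 and 45180 in cuc1 cuc2, against 40680 and 42710 in Ler. LEC1 alone made 27860 and 30130 of these sums in cuc1 cuc2, and 27760 and 28980 in Ler. The sums therefore say little about the other embryo markers, of which 2, OLEO1 and SESA3, were called higher. Of 8 marker genes of endosperm and seed coat, BAN and TT12 were in no channel well above background, the summed signal was 3474 and 3651 in cuc1 cuc2, against 3753 and 3660 in Ler, and none was called.

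The DnaJ transcripts had no shared direction, and most chaperonin transcripts had lower signals in cuc1 cuc2 embryos in the deposited ratios of both experiments. Of 37 DnaJ genes, 7 had a log2 ratio below 0 in both experiments and 10 above 0 in both, whereas of 17 chaperonin genes 11 were below and 1 above 0 in both. Among all gene probes, 22.9% were below 0 in both experiments and 23.1% above. With normexp background correction and median centring in place of loess, the counts below 0 in both were 4 of 37 DnaJ genes and 5 of 17 chaperonins, against 11.2% of all gene probes. In the deposited ratios, the 7 DnaJ genes make 18.9% of their class, and the 11 chaperonins 64.7%. The DnaJ median was -0.02 (0.01 in experiment 1 and 0.002 in experiment 2), and the chaperonin median -0.17 (-0.14 and -0.21). The difference of the medians, DnaJ minus chaperonin, was 0.14, with 0.16 in experiment 1 and 0.21 in experiment 2 and an SD of 0.04 between them. It is given as a description without a test, since the genes of a class are not replicates.

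**Figure D1:**
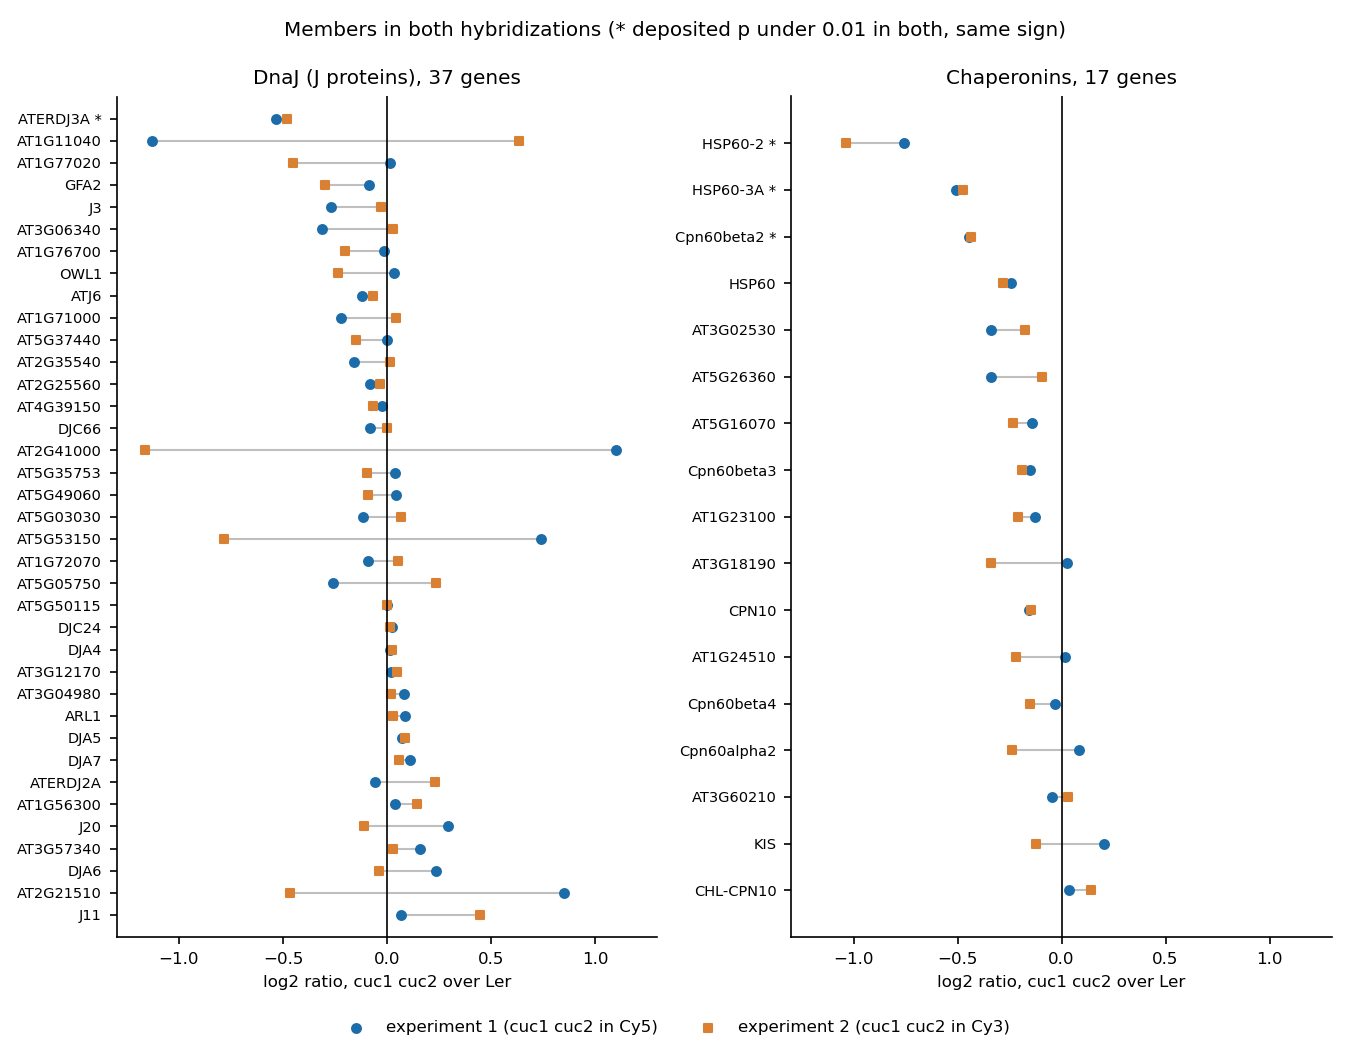
Log2 ratio of cuc1 cuc2 over Ler (x axis) of each DnaJ gene (left) and each chaperonin gene (right) in experiment 1 (circles) and experiment 2 (squares), with genes ordered by their mean and a star for genes called lower. Of the DnaJ genes, 7 of 37 lie left of 0 in both experiments, against 11 of 17 chaperonins, and the widest gaps between experiments are among DnaJ genes.

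Both rules on size and error named few of these genes. The p-value rule called 4 of the 54 lower, the DnaJ gene ATERDJ3A and the chaperonins HSP60-2, HSP60-3A and Cpn60beta2, and called none higher. With a p limit of 0.001, or of 0.05 after Benjamini-Hochberg adjustment within each array, HSP60-2 alone of the 4 stayed called. On the whole array the p-value rule called 0.242% of gene probes lower (52 probes) and 0.502% higher. The paper reports the same number of lower genes by this rule. It then measured these genes by quantitative RT-PCR in embryos of the heart and bending cotyledon stages. None of the 4 called genes named above is among those that the paper selected from these measurements as lower in the mutant. The RT-PCR values of the 4 genes are not given here. HSP60-2 was also the single gene of the 54 below -0.5 in both experiments, a size that 0.344% of all gene probes passed, and none of the 54 was above 0.5 in both, against 0.712% of all. With normexp and median centring HSP60-2 no longer passed that size. The chaperonin median was -0.15 over the 14 genes that were not called, 8 of which were below 0 in both experiments.

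**Figure D2:**
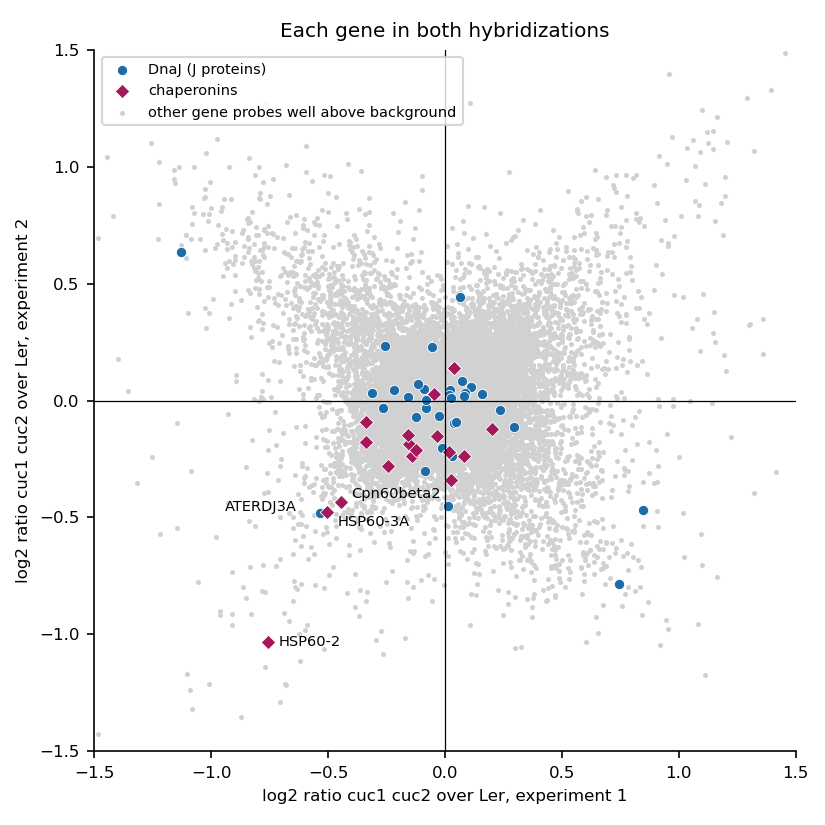
Log2 ratio of cuc1 cuc2 over Ler in experiment 1 (x axis) against experiment 2 (y axis) for DnaJ genes (circles), chaperonins (diamonds) and the other probes well above background (grey, those within 1.5 of 0). The 4 called genes are named, and 11 of 17 chaperonins lie below 0 on both axes.

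Of the chaperonin families, the mitochondrial HSP60 had the lowest median. All 3 genes listed for it were below 0 in both experiments, with a median of -0.49, and 2 of them were called. HSP60-2 (AT2G33210, described on the array as mitochondrial chaperonin HSP60) had signals of 2339 and 2466 in cuc1 cuc2, against 3952 and 5049 in Ler. Its signal in cuc1 cuc2 was below that in Ler on each array, by more on the second. The log2 ratios were -0.76 (0.18) in experiment 1 and -1.03 (0.18) in experiment 2, a mean of -0.90, which is a 1.86-fold lower signal and the 47th lowest mean among all gene probes. The deposited p-values were 2.438e-05 and 1.38e-08. HSP60-3A (AT3G13860, described as a putative chaperonin) had signals of 2897 and 2924 in cuc1 cuc2, against 4112 and 4067 in Ler. Its values in the experiments nearly coincided, at log2 ratios of -0.51 (0.17) and -0.48 (0.17), a 1.41-fold lower signal with p-values of 0.0035 and 0.00498. HSP60 (AT3G23990), the third gene of the family, had signals of 15850 and 14850 in cuc1 cuc2, against 18770 and 18040 in Ler. It was lower by less, with log2 ratios of -0.24 (0.16) and -0.28 (0.16), and was not called (p-values 0.137 and 0.0874). The mitochondrial lid, CPN10 (AT1G14980), had log2 ratios of -0.16 and -0.15 with an error of 0.16 each. The software marked the Ler spot of CPN10 in experiment 1 as not uniform, which leaves experiment 2 as the unmarked value. A second 10 kDa chaperonin, AT1G23100, was also below 0 in both, at -0.13 and -0.21.

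In plastids, 1 of the chaperonin 60 subunits was called. Cpn60beta2 (AT3G13470), a beta subunit, had signals of 14860 and 15090 in cuc1 cuc2, against 20250 and 20410 in Ler. Both arrays gave nearly the same difference, with log2 ratios of -0.45 (0.17) and -0.44 (0.17), a 1.36-fold lower signal. Its p-values of 0.00742 and 0.00893 lie just inside the limit of 0.01. The other 3 plastid chaperonin 60 genes of the set had ratios nearer to 0. Cpn60beta3 (AT5G56500) had -0.15 and -0.19. Cpn60beta4 (AT1G26230), known for folding a subunit of the plastid NADH dehydrogenase-like complex, had -0.03 and -0.15. Cpn60alpha2 (AT5G18820), an alpha subunit, had opposite signs at 0.08 and -0.24. Among the plastid lids, CHL-CPN10 (AT2G44650) was the chaperonin gene above 0 in both experiments, at 0.04 and 0.14, and AT3G60210, described as a chloroplast chaperonin 10, had -0.05 and 0.03. The ratios of both lids were smaller than their errors of 0.16. The listed plastid genes outside the set were all below 0 in both experiments, and none was called. CPN60A (AT2G28000), an alpha subunit, had -0.22 and -0.24, CPN60B (AT1G55490), a beta subunit, had -0.05 and -0.15, and the lid CPN20 (AT5G20720) had -0.08 and -0.06.

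**Figure D3:**
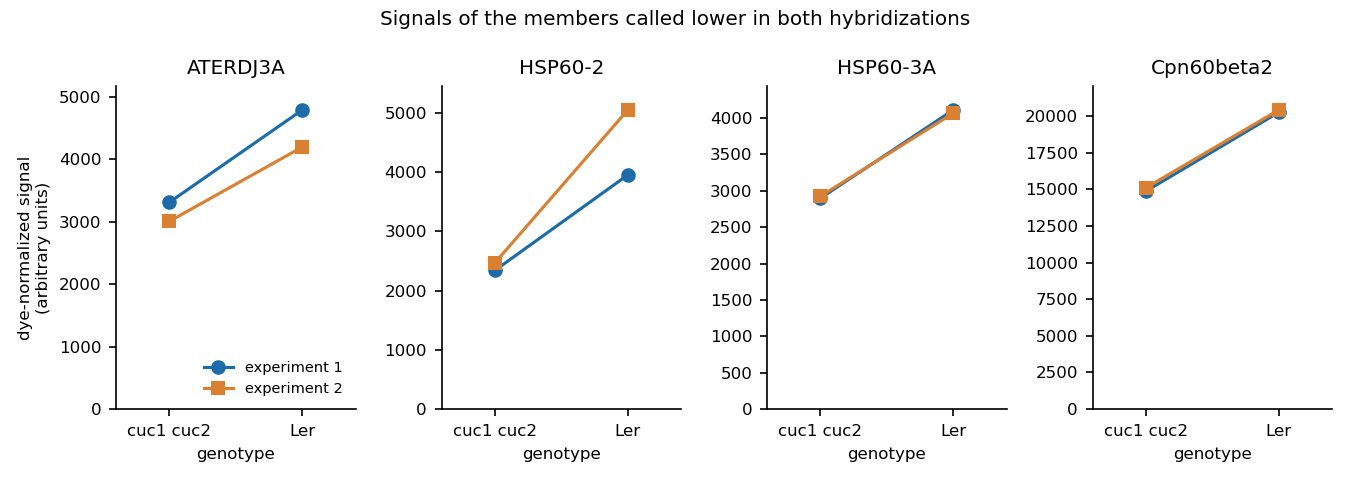
Dye-normalized signal in arbitrary units (y axis, from 0) in cuc1 cuc2 and Ler for the 4 called genes, with experiment 1 as circles and experiment 2 as squares. Each line joins the genotypes on 1 array, and all 8 lines are lower in cuc1 cuc2.

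The cytosolic chaperonin CCT is built from different subunits that stand side by side in each ring, and actin and tubulin are its best known clients. Its theta subunit is known in Arabidopsis for a part in the movement of KNOTTED1-type homeodomain proteins between cells. Of the 5 CCT genes in the set, 3 were below 0 in both experiments and none was called. AT3G02530, described as a putative chaperonin, had log2 ratios of -0.34 (0.18) and -0.18 (0.17). AT5G26360, the gamma chain by its description, had -0.34 and -0.09, and AT5G16070, described as a TCP-1 chaperonin-like protein, had -0.14 and -0.24. The other two were near 0 in experiment 1 and lower in experiment 2. AT3G18190 had 0.02 and -0.34, and the epsilon subunit AT1G24510 had 0.02 and -0.22. For both of these genes the gap between experiments, 0.36 and 0.23, was larger than the mean ratio, -0.16 and -0.10.

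The word rule missed 4 CCT genes whose descriptions say T-complex protein or polypeptide in place of chaperonin, and all 4 were below 0 in both experiments. The eta subunit AT3G11830 had log2 ratios of -0.42 and -0.28, the theta subunit AT3G03960 had -0.19 and -0.20, TCP-1 (AT3G20050) had -0.15 and -0.19, and the beta subunit AT5G20890 had -0.24 and -0.12. Over all 9 CCT genes the means ran between -0.35 and -0.10 with a median of -0.19, and 7 were below 0 in both experiments. Of the 23 genes that the chaperonin lists hold, members or not, 18 were below 0 in both, and the 7 that the word rule missed were among them. The chaperonin class also holds 4 listed lid genes, with a median of -0.08, of which 2 were below 0 in both experiments and 1 above. KIS (AT2G30410) is the 1 gene of the class that is neither a chaperonin subunit nor a lid. It encodes tubulin folding cofactor A, which takes up tubulin after CCT, and had opposite signs at 0.20 and -0.12.

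**Figure D4:**
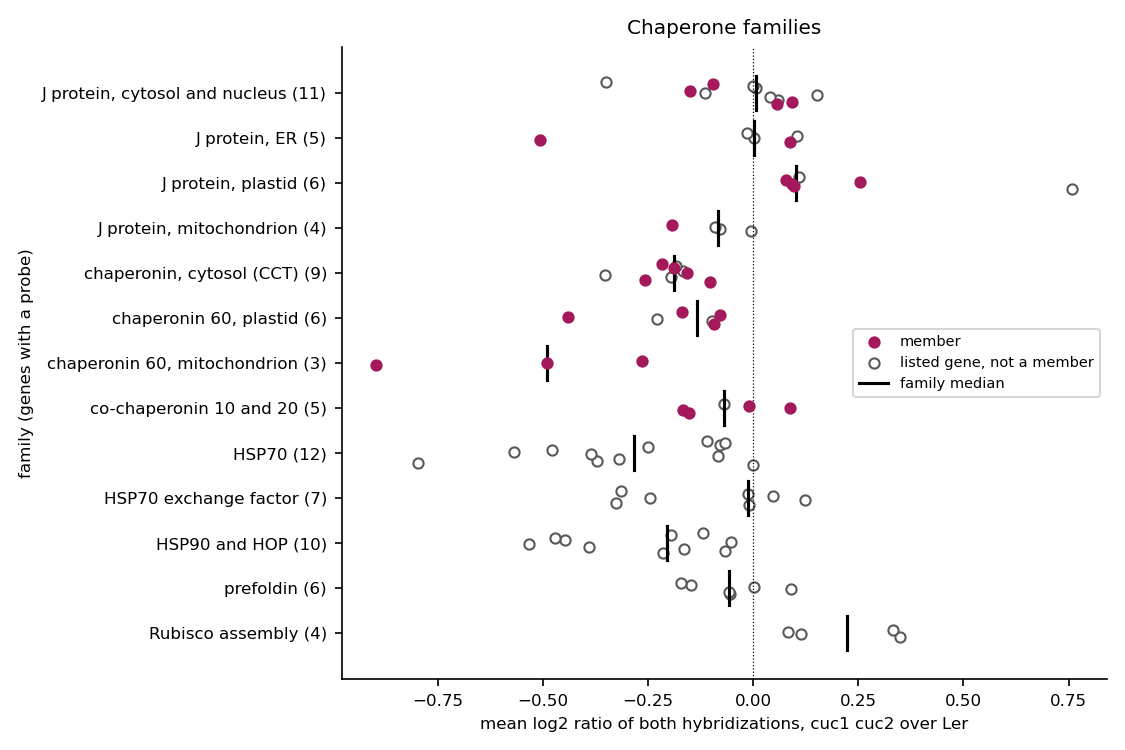
Mean log2 ratio of both experiments (x axis) for the genes of each chaperone family (rows, with the number of genes), filled for genes of the set and open for listed genes outside it, with the family median as a vertical line. The 9 CCT genes lie between -0.35 and -0.10, and the 3 mitochondrial chaperonins have the lowest family median, -0.49.

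The DnaJ genes were close to the array as a whole in error and sign. The means of 33 of 37 DnaJ genes (89.2%) and of 6 of 17 chaperonins (35.3%) were smaller than their own error, against 80.2% of all gene probes. Opposite signs in the experiments were found for 18 of 37 DnaJ genes (48.6%) and 5 of 17 chaperonins (29.4%), against 49.8% of all gene probes. Probe brightness, which sets the error but does not compare transcript levels between genes, also differed between the classes. The mean signal reached 1000 for 20 of 37 DnaJ probes and for 16 of 17 chaperonin probes, and across all gene probes the gap between experiments had a median of 0.56 at signals under 300 and of 0.11 at signals from 1000 to 3000. Among probes with a mean signal of at least 1000, a limit chosen after the values were seen, 5 of 20 DnaJ genes and 11 of 16 chaperonins were below 0 in both experiments, against 32.1% of all gene probes. The medians there were -0.002 for DnaJ genes and -0.17 for chaperonins, a difference of 0.17.

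The called DnaJ gene was ATERDJ3A (AT3G08970), a J protein of the endoplasmic reticulum (ER) lumen that is known for heat tolerance of pollen tubes. Its signals were 3308 and 3004 in cuc1 cuc2, against 4787 and 4194 in Ler. Both arrays showed the lower signal in cuc1 cuc2 to a similar degree. The log2 ratios were -0.53 (0.17) and -0.48 (0.17), a 1.42-fold lower signal, with p-values of 0.00195 and 0.00448. The other listed ER J protein of the set, ATERDJ2A (AT1G79940), had opposite signs at -0.06 and 0.23. It is a membrane protein of the Sec63 type that serves protein import. The listed ER J proteins outside the set, ATERDJ2B, ATERDJ3B and P58IPK, had mean ratios from -0.01 to 0.10, and none was called.

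The cytosolic and mitochondrial J proteins of the set were not called. J3 (AT3G44110), a farnesylated cytosolic J protein that works with HSP70, had -0.27 (0.16) and -0.03 (0.16). Its close relative J2, whose description lacks the word, had -0.45 and -0.25, a mean of -0.35 with an error of 0.12, and was not called either. The signals of J2 and J3 were not tested for cross-hybridization, nor were those of any other related genes here. GFA2 (AT5G48030), a mitochondrial J protein needed in the female gametophyte, had -0.09 (0.18) and -0.30 (0.17). ATJ6 (AT5G06910) had -0.12 and -0.07, ARL1 (AT1G24120), a relative of the gravitropism protein ARG1, had 0.09 and 0.03, and AT1G56300 had 0.04 and 0.14.

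The 4 listed plastid J proteins of the set had means above 0, from 0.08 to 0.26. None was called, and the means of 3 were within their errors. The list came from general knowledge, and the set may hold further plastid J proteins. J11 (AT4G36040), a small J protein of the chloroplast stroma, had the highest mean of all 54 genes, from signals of 479 and 570 in cuc1 cuc2, against 458 and 419 in Ler. Nearly all of its difference came from experiment 2, with log2 ratios of 0.07 (0.36) and 0.44 (0.27). DJA5 (AT4G39960) and DJA6 (AT2G22360), which take part in iron-sulfur cluster assembly in chloroplasts, had 0.07 and 0.08, and 0.24 and -0.04. J20 (AT4G13830), which hands a damaged enzyme of isoprenoid synthesis to HSP70, had 0.30 and -0.11. Outside the set, 1 listed plastid J protein was called higher. J8 (AT1G80920), looked at after its values were seen, had signals of 1139 and 1337 in cuc1 cuc2, against 723 and 736 in Ler, and log2 ratios of 0.65 and 0.86. All 6 listed plastid J proteins had a mean above 0, and 4 were above 0 in both experiments.

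The remaining 26 DnaJ genes were in none of the lists by compartment, which does not place them outside those compartments. All 26 had means within their errors, between -0.25 and 0.19, with 3 below 0 in both experiments, 6 above and 17 of opposite or no sign. Those with the highest means among genes of 1 sign were AT3G57340, at 0.16 and 0.03, DJA7 (AT1G80030), at 0.11 and 0.06, and AT3G04980, at 0.08 and 0.02. The 4 widest gaps between experiments belonged to AT2G41000 (1.10 and -1.16), AT1G11040 (-1.13 and 0.64), AT5G53150 (0.74 and -0.79) and AT2G21510 (0.85 and -0.47). These 4 genes had signals under 300 in every channel, and their errors in a single experiment were at least 0.55. Of all 54 genes, 51 were well above background in every channel. AT2G41000 and AT5G50115 were so in no channel, and AT5G37440 in 1 experiment per genotype.

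Genes that work with these chaperones were counted from lists of the same pathway, in the deposited ratios only. Among all gene probes, 22.9% were below 0 in both experiments and 23.1% above, and 0.242% were called lower. Bright probes had 1 sign more often, with 32.3% below 0 in both at mean signals of 3000 to 10000 and 37.5% above 10000. Of 12 HSP70 genes, the chaperones that J proteins serve, 11 were below 0 in both experiments, with a median of -0.28. The means of 5 of the 12 were within their errors, and 1 gene was called. This gene, Hsp70b (AT1G16030), a heat-inducible HSP70, had signals of 1401 and 1409 in cuc1 cuc2, against 2391 and 2488 in Ler, and a 1.74-fold lower signal. The twelfth, BIP3, was in no channel well above background. Of 10 genes of HSP90 and of HOP, the protein that joins HSP90 to HSP70, 8 were below 0 in both with a median of -0.20, and Hop3 (AT4G12400) was called, with log2 ratios of -0.50 and -0.56. Of 7 HSP70 exchange factors 3 were below and 2 above 0 in both, with a median of -0.01. Of 6 prefoldin genes, which hand actin and tubulin to CCT, 3 were below and none above, with a median of -0.06. Of 4 Rubisco assembly genes, which act after the plastid chaperonin, none was below and 3 were above, with a median of 0.22. Of 4 plastid genes with a DnaJ-type zinc finger but no J domain, 3 were above 0 in both, with a median of 0.12. None of the genes in the last 4 lists was called. Among the embryo markers, the storage genes OLEO1 and SESA3 were called higher, with mean log2 ratios of 0.60 and 0.71, whereas the storage gene CRA1 had -0.43 and -0.09 and was not called. Whether a difference in the progress of seed filling between the extracts has a part in the chaperone ratios was not tested.

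The called genes kept their direction under other background corrections and dye normalizations. Under 4 other combinations, the mean of HSP60-2 lay between -0.82 and -0.72, that of HSP60-3A between -0.45 and -0.40, that of Cpn60beta2 between -0.43 and -0.42, and that of ATERDJ3A between -0.47 and -0.42. A dye effect cancels in these means, and the ratios of single experiments ranged more widely. With the deposited ratios included, they ran from -1.11 to -0.47 for HSP60-2 and from -0.61 to -0.23 for HSP60-3A. For Cpn60beta2 they ran from -0.70 to -0.16, and for ATERDJ3A from -0.61 to -0.25. Each of the 4 genes was below 0 in both experiments under each combination. Counted in this strict way, over all combinations and both experiments, 3 of 37 DnaJ genes and 5 of 17 chaperonins were always below 0, against 6.79% of all gene probes, and 1 DnaJ gene and no chaperonin was always above, against 8.63%. The DnaJ median stayed between -0.03 and -0.01 under these combinations and the chaperonin median between -0.16 and -0.14.

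**Figure D5:**
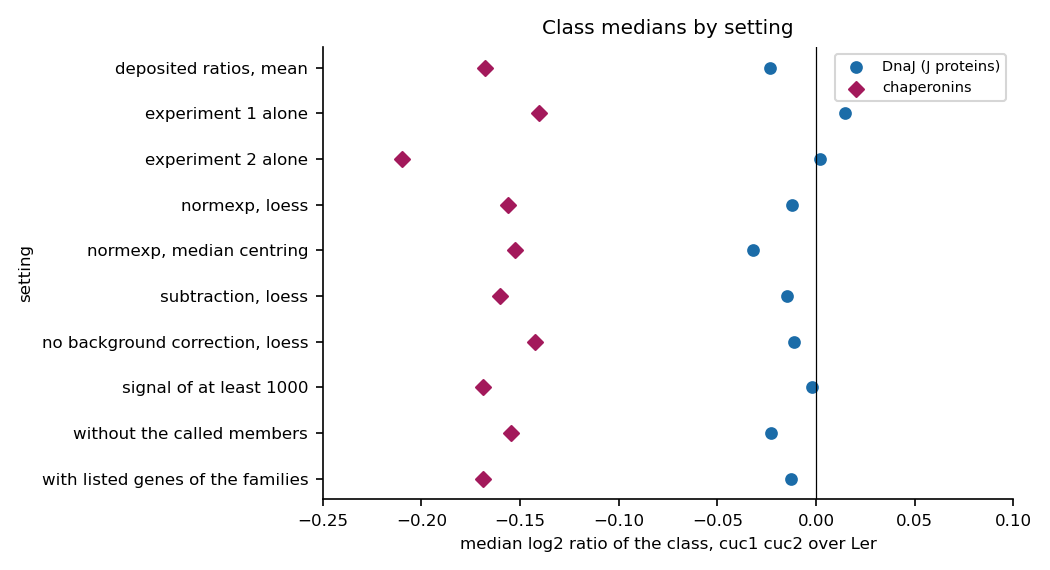
Median log2 ratio of cuc1 cuc2 over Ler (x axis) of DnaJ genes (circles) and chaperonins (diamonds) under the settings named in the rows. Settings that keep only listed genes, or only descriptions without words such as putative or like, are left out. In these rows the DnaJ median lies between -0.03 and 0.01 and the chaperonin median between -0.21 and -0.14.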

How the data were processed

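The arrays were 2-colour oligonucleotide arrays of 22575 spots, 21500 of them gene probes. Per the file headers, the scanner software (Agilent Feature Extraction 7.5.1 by the submitters' processing notes) corrected the background and the dye balance of each array and wrote, per spot, background-corrected intensity values, flags, a log10 ratio of red over green with its error and a p-value, and the authors deposited these files. The deposited log10 ratios of the series' value table differed from them by at most 1.66e-09 on the log2 scale. The deposited flags gave the probes well above background. The genome build of the probes is not given in the sources used here.

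Each ratio was put on the log2 scale as cuc1 cuc2 over Ler, by the dye labels, and averaged over 2 experiments, with a dye effect cancelling in the mean. Experiments 1 and 2 follow the dyes stated above, and the sample records number them the other way round. Genes were classed by the words in the probe description. Calls needed a deposited p-value under 0.01 in both experiments with the same sign, and sizes a log2 ratio past 0.5 in both. All ratios have 1 extract per genotype, so no test across biological samples was made, and the small number of arrays limits the precision. Named genes were those called or past 0.5, the 8 lowest and 8 highest of 1 sign well above background, listed chaperonins and J proteins, the 4 with the widest gaps, and called genes of the partner lists. Lists (112 genes, 110 with a probe) came from general knowledge. The genes and lists were chosen with earlier results of these data known. Alternatives were limma 3.58.1 in R 4.3.3 with normexp (offset 50) and loess or median centring, subtraction or no background correction with loess, each experiment alone, other limits and other ways of choosing members. The scripts were tested on simulated data. Python 3.11.15 with pandas 2.3.3 was used.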

Additional observations from a re-analysis of the deposited data

How the results depend on the processing

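For single genes, 7 other settings were compared with the main one. None of the 54 mean ratios moved by more than the larger of its SD between experiments and the error of the mean, combined from the software's errors. Neither experiment alone could pass that limit, nor could the series' value table, which holds the same ratios. Only the 4 other background corrections and normalizations could have passed it. By that SD alone, 8 of 37 DnaJ genes and 3 of 17 chaperonins moved by more under another background correction or normalization, the called ATERDJ3A, HSP60-3A and Cpn60beta2 among them. The chaperonin median kept its sign under every setting tried, and so did the difference between the classes. With normexp and median centring in place of loess, fewer genes had 1 sign in both experiments, with 4 DnaJ genes and 5 chaperonins below 0, 3 DnaJ genes and 0 chaperonins above 0, and 0 chaperonins below -0.5, while among all gene probes 11.2% were then below 0 in both. The DnaJ median, near 0, was -0.012 with normexp and loess and -0.011 without background correction. It was 0.079 over listed genes alone, -0.013 with listed genes of the families added, and -0.0020 at signals of at least 1000. Without descriptions that say putative, like, similar, isolog or homolog, 1 DnaJ gene was left, AT3G04980, at 0.050. Its description still says hypothetical protein. With the listed genes added, 18 of 24 chaperonins were below 0 in both experiments. The difference of the medians was 0.25 over listed genes. It was 0.21 under that limit on descriptions, where AT3G04980 alone stands for the DnaJ class. With a p limit of 0.001, or of 0.05 after Benjamini-Hochberg adjustment within each array, 0 DnaJ genes were called and HSP60-2 was the 1 chaperonin called. With a size limit of 0.3, 1 DnaJ gene and 3 chaperonins were past it downwards in both experiments, and with a limit of 1, 0 chaperonins were. In a single experiment, the DnaJ median was 0.0021 to 0.015 and the difference of the medians 0.16 to 0.21, with 16 to 17 DnaJ genes below 0 and 19 above, 2 DnaJ genes below -0.5 and 1 to 3 above 0.5, and 2 to 5 chaperonins above 0 and 1 to 2 below -0.5. Among all 21500 gene probes, 10100 were below 0 in experiment 1 and 10593 in experiment 2. For the other p limits, the other size limits and the sizes in a single experiment, no share of all gene probes is given here. Those counts therefore have no background beside them. The added families, the signal limit, and the omission of called or marked genes were chosen after seeing the data. Each ratio already pairs the genotypes on 1 array. Both arrays hold the same pair of extracts, so no analysis across biological replicates was possible. Signal over background limits the dim DnaJ probes.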

Other observations

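By locus order on chromosome 3, the called genes ATERDJ3A (AT3G08970), Cpn60beta2 (AT3G13470) and HSP60-3A (AT3G13860) lie before the locus of CUC1 (AT3G15170), which is mutated in cuc1 cuc2, and HSP60-2 lies on chromosome 2. From ATERDJ3A to CUC1 the array holds 523 gene probes, with a median log2 ratio of -0.01. The stretch was chosen after the calls were known and ends at a called gene, so the share of called genes in it was set by the choice and is not compared with other stretches.

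Across the 34 DnaJ genes well above background the ratios of the experiments correlated at r = -0.56, and across the 17 chaperonins at r = 0.74. Across all 18102 gene probes well above background it was r = -0.02. The DnaJ value includes AT1G11040, AT5G53150 and AT2G21510, which had wide gaps of opposite sign at signals under 300. These are correlations across genes that share arrays and extracts, and the chaperonin value includes the 3 called genes.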
